A study of Rattus norvegicus with 2 samples.

Results

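The genes described here are the matrix metalloproteinases (Mmp), the ADAM and ADAMTS proteases with their ADAMTS-like relatives, and the tissue inhibitors of metalloproteinases (Timp). They were taken by gene symbol, from the name that opens the annotation of each row: Mmp, Adam, Adamts or Adamtsl followed by a number and at most 1 letter, or Timp followed by 1 digit. This gave 59 of the 16846 gene symbols: 20 Mmp, 19 Adam, 13 Adamts, 3 Adamtsl and 4 Timp genes.

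Poly(A) RNA of cultured ventricular cells from newborn rats, taken on postnatal day 0 and prepared as cardiomyocytes, was sequenced in 2 libraries with a strand-specific kit. In 1 library, here called anti-miR, the cells had received adeno-associated virus (AAV2/9) with short hairpins against miR-99/100 and Let-7 for 7 days. The other is the control, which one label calls an empty AAV and the treatment protocol a mock transduction. The labels used here give no strain, sex or genotype. Both cultures were made alike, from the cells that stayed in suspension over a plating step on bare plastic. With 1 library per group no difference has a replicate check, so no test between the conditions is given and every ratio describes these libraries.

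Metalloproteinases are zinc enzymes that cut proteins outside or at the surface of the cell. MMPs degrade collagens, elastin and other matrix proteins, ADAMs release the outer part of membrane proteins such as growth factors and cytokines, and ADAMTS proteases trim procollagens and proteoglycans. TIMPs bind to the active site of these enzymes and block it. In the heart the balance of proteases and inhibitors governs the turnover of the matrix around the muscle cells, and much of it is made by fibroblasts and macrophages.

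The small RNAs named by the treatment are shown because their seeds, the bases that pair with target transcripts, define the families against which the hairpins were directed. The sequences are the mature rat forms of RefSeq (build GRCr8), and capitals mark the seed, bases 2 to 8.
rno-let-7a-5p: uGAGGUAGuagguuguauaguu
rno-let-7c-5p: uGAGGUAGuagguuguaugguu
rno-miR-99b-5p: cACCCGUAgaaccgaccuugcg
rno-miR-100-5p: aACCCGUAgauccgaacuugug
The let-7 forms share 1 seed, and miR-99b and miR-100 share another. The levels of these small RNAs were not analysed here. No search for their target sites in the protease transcripts was made.

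A second set of sequences shows promoters from 1 protease cluster, of genes with reads and of genes listed without reads. Of the 59 members, 9 Mmp genes stand side by side on chromosome 8 of build rn4, between 4158887 and 4533730, all on the plus strand with no other listed gene between them. Only Mmp12, Mmp8 and Mmp7 of these 9 had reads. The promoter sequences come from RefSeq (build GRCr8, chromosome 8, plus strand) and run over 140 bases, from 120 before the gene start to 20 after it. Capitals mark the AP-1 motif TGAGTCA or its reverse complement TGACTCA, and the TATA motif TATAAA on the strand of the gene.
Mmp13 (chr8:12782709-12782848): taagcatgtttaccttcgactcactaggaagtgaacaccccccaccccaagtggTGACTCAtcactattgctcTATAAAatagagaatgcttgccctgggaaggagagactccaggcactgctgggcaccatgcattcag
Mmp12 (chr8:12866532-12866671): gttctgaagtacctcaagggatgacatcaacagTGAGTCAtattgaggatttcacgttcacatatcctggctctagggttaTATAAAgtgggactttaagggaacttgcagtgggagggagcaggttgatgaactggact
Mmp3 (chr8:12925161-12925300): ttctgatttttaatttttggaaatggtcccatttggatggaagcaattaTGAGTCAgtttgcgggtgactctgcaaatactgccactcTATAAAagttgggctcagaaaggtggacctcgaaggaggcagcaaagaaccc
Mmp1 (chr8:12943333-12943472): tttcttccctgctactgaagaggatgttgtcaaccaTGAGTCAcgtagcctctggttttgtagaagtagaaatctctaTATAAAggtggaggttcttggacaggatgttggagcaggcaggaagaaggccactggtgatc
Mmp10 (chr8:12974587-12974726): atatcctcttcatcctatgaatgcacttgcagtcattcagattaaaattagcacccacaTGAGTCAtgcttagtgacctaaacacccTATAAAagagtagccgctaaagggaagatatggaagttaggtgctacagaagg
Mmp7 (chr8:13132923-13133062): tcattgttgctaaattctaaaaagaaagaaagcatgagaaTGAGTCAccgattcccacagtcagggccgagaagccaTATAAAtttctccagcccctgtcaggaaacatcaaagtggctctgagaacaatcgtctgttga
Mmp8 (chr8:13008770-13008909): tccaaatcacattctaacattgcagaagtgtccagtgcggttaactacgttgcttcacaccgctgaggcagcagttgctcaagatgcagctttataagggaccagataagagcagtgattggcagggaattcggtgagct

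The AP-1 motif stood in 6 of the 9 cluster promoters, those of Mmp13, Mmp12, Mmp3, Mmp1, Mmp10 and Mmp7, with its first letter 61 to 87 bases before the gene start. The same 6 also held the TATA motif, and so did Mmp20, which lacked the AP-1 motif. Mmp8, which had reads, and Mmp27 held neither. The promoters of Mmp20 and Mmp27 are not printed above. Over the 300 bases that the table gives for each gene (250 before the start and 50 after), 4.63% of 33469 rat promoters held the AP-1 motif, 8.80% the TATA motif and 0.514% both. Among the 31 other members with a promoter sequence, 1 held the AP-1 motif, Adam19, and 0 held both. In all, 40 of the 59 members had an entry. A match is only the presence of these letters in the window: Mmp12 was the most abundant gene of the cluster, while Mmp13, Mmp3, Mmp1 and Mmp10 with the same motifs were listed at 0 in both libraries.

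Depth was 16031780 gene reads for the control and 14815846 for the anti-miR library. Levels are RPM, the reads of a gene for each 1000000 reads of its library on genes, with the control first. Levels of different members are compared only as RPM per kilobase of the deposited transcript length. For the marker and pathway lists, sums and the most abundant gene are by RPM, without length correction. Ratios are anti-miR over control, with an exact Clopper-Pearson 95% interval of the reads, which covers counting error only. Counts cover genes whose mean RPM was 1 or more, called above the floor, and a gene was counted as higher or lower at a ratio of at least 1.5 or at most its inverse. The stated purity of the cultures is above 90% cardiomyocytes, while 12 measured cardiomyocyte markers summed to 250.2 and 285 RPM. The sums for 12 fibroblast markers were 129089 and 129212 RPM, of which Col1a1 alone gave 49138 and 50088. A low count in this table need not mean a scarce transcript (Gapdh had 45 and 34 reads). The sums are therefore no measure of the shares of cells. Macrophage markers summed to 7170 and 7876 RPM over 12 genes, and Myl7 was at 0 in both libraries. In bulk samples of this kind, fewer cells of a type and less RNA per cell cannot be told apart.

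As a family the proteases and inhibitors differed little between the libraries. Of the 59 members, 37 passed the floor, 21 were listed at 0 in both libraries and 1, Adam4, had 6 and 9 reads. Of the 37, 3 were at least 1.5-fold higher, against 11% of all 10365 genes above the floor, and 4 were at least 1.5-fold lower, against 8.67%. These shares, 8.11% and 10.8%, lie near the background. The median log2((anti-miR + 0.1)/(control + 0.1)) over the 37 was 0.04, beside 0.03 over all genes, with quartiles of −0.17 and 0.18. All members together summed to 9671 control RPM and 9358 anti-miR RPM.

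Level and ratio were linked, as they were over all genes. None of the 18 members with a mean of at least 100 RPM was 1.5-fold apart, where 0.948% of all genes of that level were. Of these 18, 2 were at least 1.2-fold apart, Mmp12 and Adamts2, against 15.5% of all genes of that level. Between 10 and 100 RPM, 3 of 11 members were 1.5-fold apart (background 11.4%), and between 1 and 10 RPM 4 of 8 (background 54.1%). The counting interval is narrow beside the spread of ratios: it excluded 1 for 61.7% of all genes above the floor and for 22 of the 37 members, so an interval without 1 does not set a member apart.

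**Figure D1:**
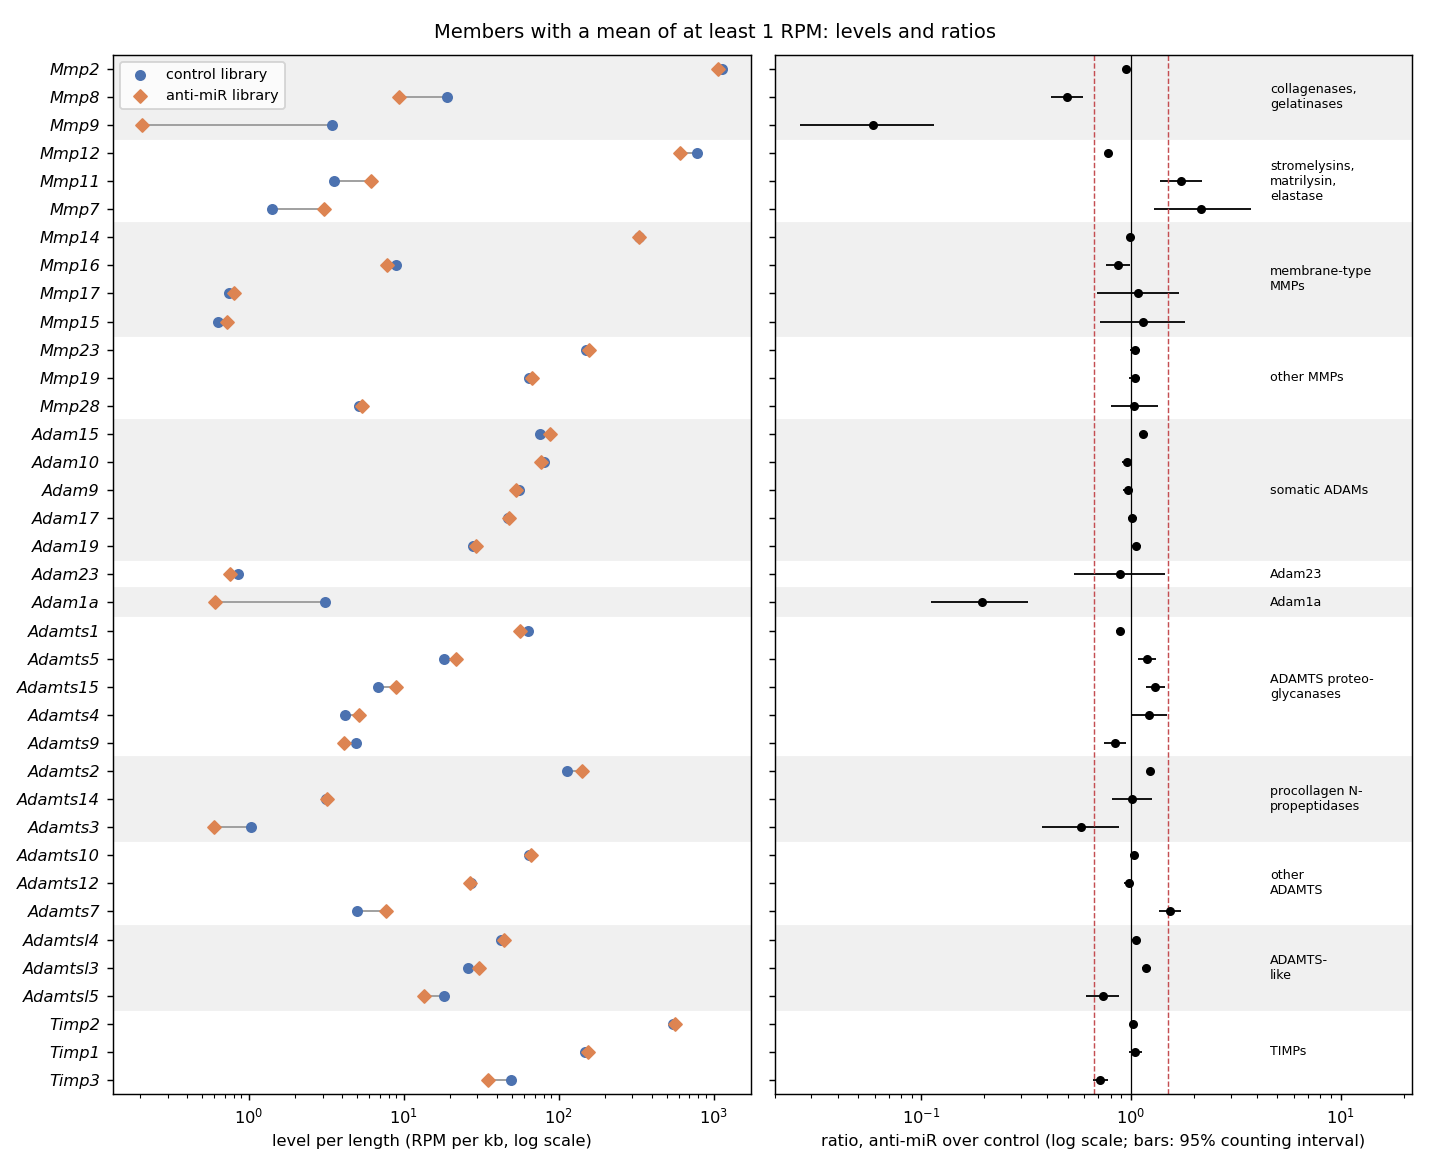
Left, level per length (RPM per kilobase, log scale) of the 37 members with a mean of at least 1 RPM in the control library (circles) and the anti-miR library (diamonds), grouped by role. Right, their ratios on a log scale with 95% counting intervals, dashed lines at 1.5-fold: Mmp9, Mmp8, Adam1a and Adamts3 lie below the lower line, Mmp7, Mmp11 and Adamts7 above the upper.

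**Figure D2:**
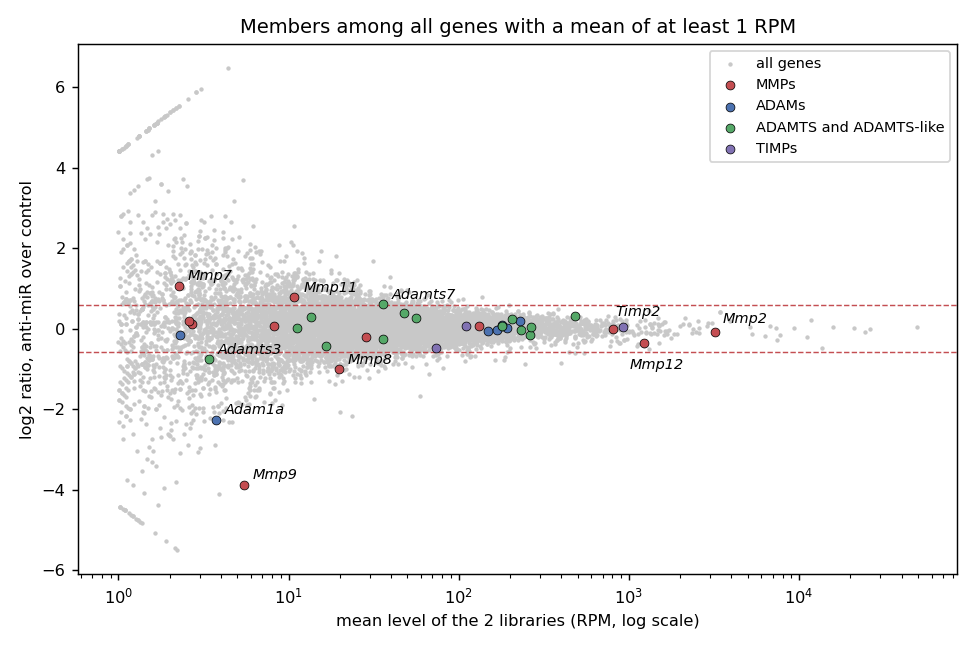
Log2 ratio against the mean level of the 2 libraries (RPM, log scale) for 10365 genes (grey) and the 37 members (coloured by family), dashed lines at 1.5-fold. The ratios of all genes spread widely below 10 RPM, where 54.1% lie outside the lines, and the 18 members of at least 100 RPM all lie between them.

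Transcripts of a few matrix-degrading enzymes made up most of the family. Per length, Mmp2 alone accounted for 28.7% of the summed control level and 28.6% of the anti-miR level. Mmp2, Mmp12, Timp2 and Mmp14 together made up 70.9% and 68.6%. The order continued with Mmp23, Timp1, Adamts2, Adam15, Adam10 and Mmp19, and these 10 genes reached 87.0% and 86.9%.

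**Figure D3:**
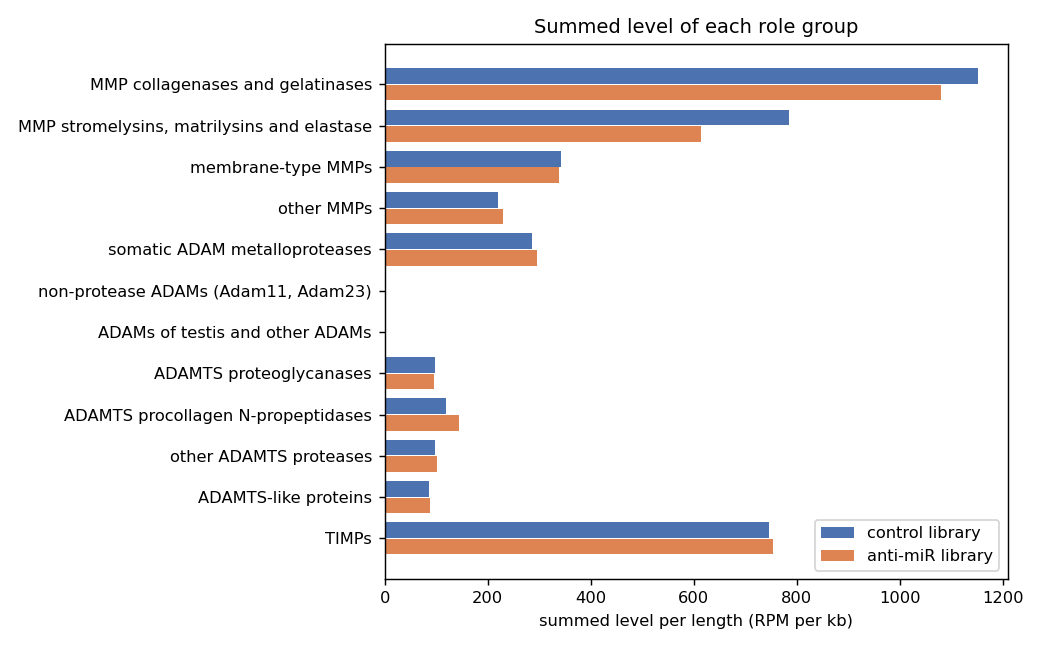
Summed level per length (RPM per kilobase, linear axis from 0) of each role group in the control and the anti-miR library. Collagenases and gelatinases lead, with 1151 and 1080 RPM per kilobase, followed by the group of macrophage elastase (785 and 613) and the TIMPs (746 and 754), which change places between the libraries, while the ADAMs of testis lie near 0.

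Among collagenases and gelatinases the gelatinase with most reads, Mmp2, differed little, and Mmp8 and Mmp9, with far fewer reads, were lower in the anti-miR library. Mmp2 (chromosome 19, 15246036 to 15275061), gelatinase A, which cuts denatured and basement membrane collagens, had 52935 and 46390 reads, or 3302 and 3131 RPM. Its ratio was 0.948 (0.937 to 0.9602). Mmp9 (chromosome 3, 155985473 to 155993433), gelatinase B, a product of leukocytes and other activated cells, had 165 control reads and 9 anti-miR reads, or 10.3 and 0.607 RPM. The anti-miR level was thus 16.9-fold lower, a ratio of 0.0590 (0.0265 to 0.115), and 29 of the 2430 genes of 1 to 10 RPM (1.19%) had a ratio as low or lower. With a pseudocount of 1 RPM the Mmp9 ratio was 0.142. Mmp8 (chromosome 8, 4402124 to 4410976), the collagenase of neutrophil granules, had 422 and 193 reads, or 26.3 and 13.0 RPM. Its level in the anti-miR library was 2.02-fold lower, at a ratio of 0.495 (0.415 to 0.588), and 37 of the 6142 genes of 10 to 100 RPM (0.602%) had a ratio as low or lower. The collagenases Mmp1 and Mmp13 were listed at 0 in both libraries. A listed 0 need not mean an absent transcript, since the ribosomal protein gene Rpl38 was also listed at 0 in both. A low count need not mean a scarce transcript either, since the glycolysis gene Gapdh had only 45 and 34 reads. Levels of different genes carry this limit too.

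Mmp8 and Mmp9 are known from neutrophils, so neutrophil markers were read beside them, on a list chosen after these values were seen. Of 13 markers, 7 were at 0 in both libraries, among them the granule protein genes Mpo, Elane and Ltf and the calprotectin gene S100a9. The whole list summed to 38.2 and 41.6 RPM, most of it from the receptor gene Csf3r at 33.6 and 34.4 RPM. Other granule protein genes had reads. Lcn2, of a protein that binds MMP9, had 31 and 3, while Camp had 0 and 26 and Fcnb 0 and 17. Camp and Fcnb lay below the floor. Of the 3 markers above it, Lcn2 was lower, Csf3r had a ratio of 1.02 and Cebpe one of 1.43 (0.949 to 2.18). The markers with reads thus went both ways, and the part of neutrophils in the Mmp8 and Mmp9 values was not tested.

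The stromelysin, matrilysin and elastase group was led by macrophage elastase. Mmp12 (chromosome 8, 4249935 to 4259837), which macrophages secrete to cut elastin, had 22234 and 15917 reads, or 1387 and 1074 RPM. Its ratio was 0.775 (0.759 to 0.791), the lowest among the 18 members of at least 100 RPM. Of 11 macrophage markers above the floor, 0 were 1.5-fold apart, with a median log2 ratio of 0.05. All 11 had a mean of at least 100 RPM, where only 0.948% of all genes were 1.5-fold apart, so this count does not set them apart. They went from C1qa, of complement C1q, at a ratio of 0.673 (0.650 to 0.696) to the lysozyme gene Lyz2 at 1.34 (1.32 to 1.36). Between them lay Cd68 at 0.811 and Csf1r at 1.11, named here outside the rule for lists. The scavenger receptor gene Cd163 was at 0 in both libraries, and the part of these cells in the Mmp12 value was not tested.

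Among the MMPs, Mmp11 and Mmp7 passed the 1.5-fold rule upwards. Mmp11 (chromosome 20, 13129667 to 13138450), stromelysin 3, which is activated by furin inside the cell, had 127 and 203 reads, or 7.92 and 13.7 RPM. Its ratio was 1.73 (1.38 to 2.18), and 190 of the 6142 genes of its level band (3.09%) had a ratio as high or higher. Mmp7 (chromosome 8, 4526018 to 4533730), matrilysin, a small MMP without the hemopexin domain, had 23 and 46 reads, a ratio of 2.16 (1.29 to 3.74). In its band of 1 to 10 RPM, 16.1% of genes had a ratio as high or higher. The stromelysins Mmp3 and Mmp10 were listed at 0 in both libraries.

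**Figure D4:**
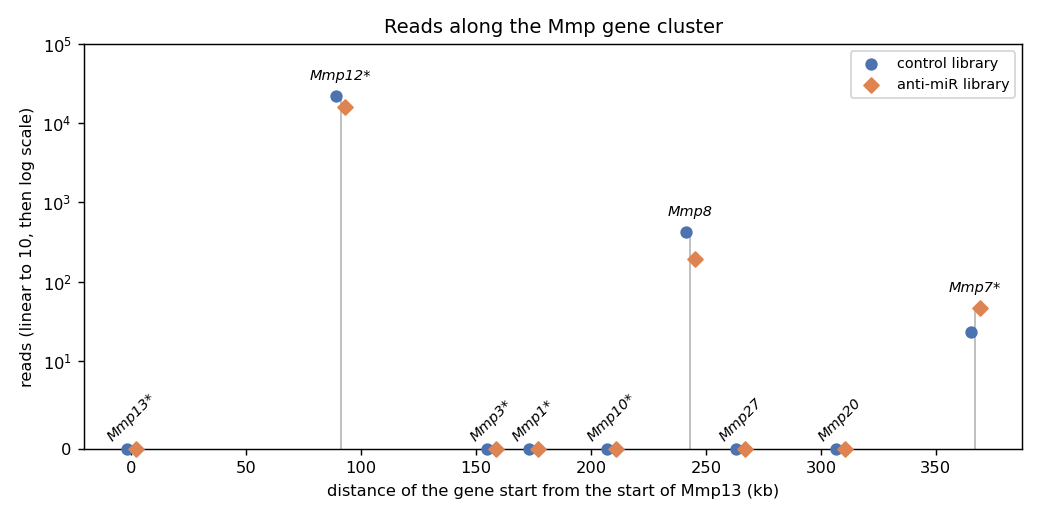
Reads of the 9 Mmp genes of the chromosome 8 cluster (linear to 10, then log scale) against the distance of each gene start from that of Mmp13 in kilobases; circles are the control and diamonds the anti-miR library, and an asterisk marks a promoter with the AP-1 motif. Mmp12 had 22234 and 15917 reads, Mmp8 422 and 193 and Mmp7 23 and 46, and the other 6 genes were listed at 0.

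Membrane-type MMPs are anchored at the cell surface, and their main member was level between the libraries. Mmp14 (chromosome 15, 32493852 to 32503076), MT1-MMP, had 12927 and 11884 reads, or 806 and 802 RPM, a ratio of 0.995 (0.970 to 1.02). MT1-MMP activates the proenzyme of MMP2 with TIMP2 as the bridge between them. The genes of these 3 proteins were all among the 4 most abundant members per length, and the Timp2 level was 1.66 times that of Mmp14 among control reads and 1.71 times among anti-miR reads. Mmp2 had 3.41 and 3.25 times the level of Mmp14 per length. Mmp16, MT3-MMP, had 30.5 and 26.5 RPM, a ratio of 0.870 (0.760 to 0.995). Mmp15 and Mmp17, with a mean near 2.6 and 2.73 RPM, had ratios of 1.14 (0.716 to 1.81) and 1.08 (0.688 to 1.70), and no difference was detectable at this depth.

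Of the remaining MMPs, 3 of 6 passed the floor and these differed by less than 1.1-fold. Mmp23 (chromosome 5, 172486916 to 172489459), an MMP with an immunoglobulin-like domain, had 175 and 184 RPM, a ratio of 1.05 (0.995 to 1.11). Mmp19 had 129 and 134 RPM, a ratio of 1.04 (0.978 to 1.11). Mmp28, epilysin, had 130 and 125 reads, or 8.11 and 8.44 RPM. The enamel protease gene Mmp20, Mmp21 and Mmp27 were listed at 0.

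The somatic ADAM proteases lay within a narrow range of levels and differed little between the libraries. All 5 above the floor lay between 27.9 and 87.7 RPM per kilobase, and their log2 ratios ran from −0.06 to 0.20. Adam10 (chromosome 8, 75152504 to 75291696), the sheddase that opens Notch signalling, had 2422 and 2148 reads, a ratio of 0.960 (0.905 to 1.02); the table lists it with 2 copies, so its reads are uncertain between near-identical copies. Adam17 (chromosome 6, 41882428 to 41930755), the TNF-alpha converting enzyme, had 3078 and 2887 reads, a ratio of 1.01 (0.964 to 1.07). Both intervals include 1. Adam15 (chromosome 2, 181527175 to 181537640) was highest of the group in ratio, with 3407 and 3612 reads and a ratio of 1.15 (1.09 to 1.203). Adam9 had 169 and 164 RPM and Adam19, which is needed for the cushions of the developing heart, 174 and 184 RPM. Adam28, known from lymphocytes, was listed at 0.

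The ADAMs of reproductive tissue were nearly all without reads, and the non-protease ADAMs had few reads or none. Of 11 ADAMs in the first group, 9 were listed at 0 in both libraries: Adam2, Adam3a, Adam5, Adam6, Adam7, Adam26a, Adam30, Adam32 and Adam34. Adam1a (chromosome 12, 36151883 to 36155069), a sperm fertilin gene, was the only one of the 11 above the floor, with 100 and 18 reads, or 6.24 and 1.21 RPM. Its ratio was 0.195 (0.111 to 0.324), a 5.13-fold lower level, and 2.92% of genes of 1 to 10 RPM had a ratio as low or lower. Like Adam10, Adam1a is listed with 2 copies and its reads are uncertain between them, and without these members 3 rather than 4 members were at least 1.5-fold lower. Adam23, a surface protein of neurons that lacks protease activity, had 39 and 32 reads, and its relative Adam11 was listed at 0.

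The ADAMTS proteoglycanases, which cut versican and aggrecan, went both ways by small amounts. Adamts1 (chromosome 11, 25434262 to 25443144) was the most abundant, with 4448 and 3658 reads, or 277 and 247 RPM, a ratio of 0.890 (0.852 to 0.930). Adamts9 was also lower, with 624 and 485 reads and a ratio of 0.841 (0.745 to 0.949). Adamts5, Adamts15 and Adamts4 had higher levels in the anti-miR library. Adamts5 had 815 and 899 reads, a ratio of 1.19 (1.08 to 1.31). Adamts15 had 660 and 797 reads, a ratio of 1.31 (1.18 to 1.45). Adamts4 had 195 and 220 reads, a ratio of 1.22 (1.002 to 1.49). None of these 5 reached 1.5-fold.

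The procollagen N-propeptidases remove the amino-terminal propeptide of fibrillar procollagens, and their main gene had a higher level in the anti-miR library. Adamts2 (chromosome 10, 36168655 to 36377640) had 6903 and 7896 reads, or 431 and 533 RPM. Its ratio of 1.24 (1.198 to 1.28) was the highest among the 18 members of at least 100 RPM. Of the genes of its substrates, Col1a1 and Col3a1 were level, at 49138 and 50088 RPM and at 26226 and 26168. Col2a1 was lower, with 2215 and 1312 reads, a ratio of 0.641 (0.598 to 0.687). Adamts3, which also processes VEGF-C, had 69 and 37 reads, a ratio of 0.580 (0.378 to 0.877). In its level band 19.7% of genes had a ratio as low or lower. Adamts14 had 178 and 167 reads, a ratio of 1.02 (0.817 to 1.26).

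Among the other ADAMTS genes, Adamts7 passed the 1.5-fold line and its relatives were level. Adamts7 (chromosome 8, 95068562 to 95108273), a protease of cartilage oligomeric matrix protein, had 454 and 642 reads, or 28.3 and 43.3 RPM. Its ratio of 1.53 (1.35 to 1.73) lay just past the 1.5-fold line, and 6.53% of genes of 10 to 100 RPM had a ratio as high or higher. Its paralog Adamts12 had 234 and 228 RPM, a ratio of 0.975 (0.930 to 1.02). Adamts10 (chromosome 7, 16043119 to 16072984), which acts on fibrillin microfibrils and was the most abundant of the group per length, had 260 and 269 RPM, a ratio of 1.03 (0.991 to 1.08). Adamts18 and Adamts19 were listed at 0.

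The ADAMTS-like proteins share the ancillary domains of the proteases and lack the catalytic one. Adamtsl4, which binds fibrillin 1, was the most abundant of the 3 per length and had 175 and 184 RPM, a ratio of 1.05 (0.998 to 1.11). Adamtsl3 had 189 and 223 RPM, a ratio of 1.18 (1.13 to 1.24). Adamtsl5 had 306 and 208 reads, a ratio of 0.736 (0.614 to 0.880). These genes thus lay on both sides of 1.

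Of the inhibitors, Timp1 and Timp2 were level and Timp3 was lower in the anti-miR library. Timp2 (chromosome 10, 108310473 to 108358821), which also takes part in MMP2 activation, had 14559 and 13823 reads, or 908 and 933 RPM, a ratio of 1.03 (1.004 to 1.05). Timp1 (X chromosome, 12542496 to 12547094), the inducible inhibitor, had 1729 and 1678 reads, or 108 and 113 RPM, a ratio of 1.05 (0.981 to 1.12). Timp3 (chromosome 7, 19677146 to 19727072), the inhibitor that binds to the matrix and also blocks ADAM17 and the aggrecanases, had 1382 and 914 reads, or 86.2 and 61.7 RPM. Its ratio was 0.716 (0.658 to 0.779), short of the 1.5-fold line. Timp4, known for its expression in the heart, was listed at 0 in both libraries.

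The summed TIMP level was below the summed MMP level in both libraries. Per length, TIMPs summed to 746 and 754 RPM per kilobase and MMPs to 2498 and 2262, so that TIMP transcripts were 0.299 times the MMP transcripts for the control and 0.333 times for the anti-miR library. The value depends on Mmp2: without it the ratio was 0.545 and 0.633, and without the length correction, with Mmp2 kept, it was 0.187 and 0.205. The anti-miR library had the higher value in each case, and Mmp12 was the largest single difference in RPM per kilobase, 780 against 604.

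An exact binomial test of the recovered reads, Benjamini-Hochberg adjusted over 11630 genes at 0.05, compares these 2 libraries and not the conditions. It called 9 of the 37 members higher and 10 lower. Over all genes above the floor it called 31.7% higher and 26.4% lower, so 24.3% and 27.0% of the members lie near that background as well.

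Genes that act with the proteases were read from lists of the wider pathway, beside the 11% of all genes above the floor that were at least 1.5-fold higher, the 8.67% that were lower and their median log2 ratio of 0.03. These shares pool all levels. By level, the share 1.5-fold apart fell from 54.1% at 1 to 10 RPM to 0.948% at 100 RPM or more. The plasminogen system, whose protease plasmin activates several MMPs, had 11 genes above the floor, 1 of them 1.5-fold higher and 2 lower, with a median log2 ratio of −0.25. Plg, of plasminogen itself, was lowest with 44 and 4 reads, a ratio of 0.0984 (0.0257 to 0.270). Serpini1, of neuroserpin, was highest with 0 and 30 reads, and its counting interval starts at 8.27. Plaur, of the urokinase receptor, had 156 and 49 reads, a ratio of 0.340 (0.241 to 0.471); it was singled out after its values were seen.

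Enzymes and partners that mature the proteases had no gene past the 1.5-fold line, in lists too short to set against the background. Of 6 proprotein convertase genes above the floor, 0 were 1.5-fold apart, and the median log2 ratio was 0.03. Furin, which cuts the propeptides of MT-MMPs, ADAMs and stromelysin 3, had 375 and 398 RPM. Pcsk6 was highest at a ratio of 1.14 and Pcsk1 lowest at 0.869. Of 6 partners of ADAM10 and ADAM17, 0 were 1.5-fold apart, with a median of 0.14. Pdia6 was the most abundant at 560 and 567 RPM, Tspan14, a tetraspanin that carries ADAM10 to the surface, was highest at 1.35 (1.21 to 1.497), and Rhbdf1, of an iRhom that carries ADAM17, was lowest at 0.874.

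Inhibitors other than TIMPs had 3 of 9 measured genes above the floor, and no median is given. Reck, a membrane-anchored MMP inhibitor, had 140 and 126 RPM, a ratio of 0.896 (0.842 to 0.953). A2m, of the protease trap alpha-2-macroglobulin, was 1.5-fold higher, with 607 and 855 reads and a ratio of 1.52 (1.37 to 1.69). Tfpi2 was lower, with 67 and 15 reads and a ratio of 0.242 (0.129 to 0.429). Among the astacin proteases and their enhancers 0 of 3 genes were 1.5-fold apart: Pcolce, the enhancer of procollagen C-proteinase, had 1149 and 1152 RPM and was highest in ratio at 1.003, and Tll1 was lowest at 0.826.

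Of the genes of proteins that ADAMs release from the membrane, 22 were above the floor. Of these, 3 were 1.5-fold higher and 1 was lower, near the background, with a median log2 ratio of 0.08. App, of the amyloid precursor protein, was the most abundant at 1227 and 1266 RPM. Tnf, the substrate that gave ADAM17 its name, was highest with 53 and 157 reads, a ratio of 3.21 (2.33 to 4.46). Hbegf, of a heparin-binding EGF-like growth factor, was lowest with 313 and 115 reads, a ratio of 0.398 (0.318 to 0.494). The sheddases Adam10 and Adam17 themselves differed by under 1.05-fold.

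Transcripts of matrix substrates were abundant and mostly level. Of 9 MMP substrate genes, 0 were 1.5-fold apart, with a median log2 ratio of 0.05. All but Dcn had a mean of at least 100 RPM, where only 0.948% of all genes were 1.5-fold apart. Fn1, of fibronectin, had 24999 and 23750 RPM, Dcn, of decorin, was highest at a ratio of 1.48 (1.36 to 1.61), and Lum, of lumican, lowest at 0.942. Of 10 ADAMTS substrate genes above the floor, 0 were higher and 2 lower, Col2a1 and Vwf, with a median of 0.00. Col2a1 had 138 and 88.6 RPM, a ratio of 0.641. The most abundant was Col1a1, given above. Fbn2, of fibrillin 2, was highest at 1.16, and Vwf, of von Willebrand factor, lowest with 47 and 3 reads, a ratio of 0.0691 (0.0138 to 0.215). The versican gene Vcan, substrate of the proteoglycanases, had 568 and 508 RPM, a ratio of 0.894 (0.867 to 0.921).

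Markers of the cells in the cultures give the frame for these values. Their counts depend on level: 54.1% of all genes of 1 to 10 RPM were 1.5-fold apart, 11.4% of 10 to 100 RPM and 0.948% of at least 100 RPM. Most fibroblast markers had at least 100 RPM, and most endothelial markers above the floor had 1 to 10 RPM. Of 12 fibroblast markers, 0 were 1.5-fold apart, with a median of 0.03, from Ddr2 lowest to Dcn highest, and Col1a1 the most abundant. Endothelial markers were few and uneven, with sums of 43.0 and 64.3 RPM over 8 genes, 3 of 6 above the floor higher and 2 lower. Flt1 had 24.7 and 44.9 RPM, Pecam1 0 and 50 reads and Plvap 33 and 0. Smooth muscle markers had 0 higher and 1 of 6 lower, with a median of −0.02, Tagln most abundant at 901 and 909 RPM, Des highest at 1.17 and Myocd lowest at 0.583. Cardiomyocyte markers had 2 of 7 higher and 1 lower, with a median of 0.21, Tnnt2 most abundant at 147 and 161 RPM, Myh7 highest at 1.87 and Myl2 lowest at 0.180. Of 5 epicardial markers 0 were higher and 1 lower, with a median of −0.29, Aldh1a2 highest and most abundant at 67.5 and 85.7 RPM and Krt19 lowest at 0.237. Whether a shift in these cells accounts for any protease value was not tested.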

How the data were processed

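The data are 1 table of 16847 gene rows with 1 column per library. Per the file headers, exon reads of rat RefSeq transcripts (build rn4) were counted by HOMER's analyzeRepeats with the opposite-strand setting, and transcripts were condensed to 1 for each gene. The tools CASAVA 1.8.2, STAR 2.2.0c and HOMER appear, with no step assigned to them, per the submitters' processing notes. The deposited signal was scaled by the authors to equal column totals, 15423813 and 15423812; the method is not given in the sources.

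Whole reads were recovered from that deposited signal: 1 read is worth 0.962 (control) or 1.04 (anti-miR), and 100% of values up to 400 reads were whole within 0.0075 units. For a symbol with several rows the one of highest mean entered, which left 16846 genes. RPM, RPM per kilobase of the deposited length, log2 ratios with a pseudocount of 0.1 RPM and exact Clopper-Pearson 95% intervals were computed with Python 3.11.15 and scipy 1.17.1. TMM factors came from edgeR 4.0.16. A floor of 3 reads, the limit a count of 0 allows, is 0.187 and 0.202 RPM. Without molecular identifiers reads are not independent molecules, so these limits hold for counting error only. Over all genes 85 had 0 reads in 1 library and at least 30 in the other, and 0 of these were members. The interval and test code was tested on simulated data.

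The members, role groups and lists were chosen with earlier results of these data known. Named in full are the TIMPs, every member at least 1.5-fold apart, the most abundant member per length of each role group, Mmp2, Mmp9, Mmp14, Adam10 and Adam17; in each list, the most abundant gene and the highest and lowest ratio. 1 gene that this rule names is not reported here. Of the 59 accessions, 55 matched the rat RefSeq table (GRCr8), all under the same symbol. The bands of level, the 1.2-fold count at 100 RPM or more and the minimum of 30 reads were chosen after the data were seen; a somewhat larger small fold, tried first, counted 1 member in place of 2. Leaving out members listed with 2 copies was likewise added then. Alternatives were other scalings, pseudocounts, floors and folds, the exact binomial test and levels without length correction.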

Additional observations from a re-analysis of the deposited data

How the results depend on the processing

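With 1 library per group nothing could be left out, and no paired analysis was possible because the groups share no replicate pairs. Scaling by the median of ratios or by TMM lowered all log2 ratios by 0.02, and under these and a pseudocount of 1 RPM all 7 members past 1.5-fold stayed past it, Adamts7 most narrowly at 1.504. The counts of 3 higher and 4 lower members were 2 and 1 with a floor of 10 RPM, where 29 members are left, 1 and 3 with a fold of 2, and 9 and 10 with the exact binomial test. The median log2 ratio of the members lay between 0.01 and 0.04 under both scalings, the other pseudocount and the other floors; it was not computed for the other alternatives. The ratio of Mmp9 was 0.142 with a pseudocount of 1 RPM, against 0.0590, and that of Mmp2 was 0.932 under both scalings, just below its counting interval; the other members' ratios stayed within theirs under these alternatives. Without the length correction the TIMP to MMP ratio was 0.187 (control) and 0.205 (anti-miR), and without Mmp2 it was 0.545 and 0.633. The summed ADAMTS-like level had a ratio of 1.10 without the length correction and 1.02 with it, and the ratios of the other 11 role groups moved by less than their counting intervals. Members below 10 RPM rest on few reads, and 9 reads carry the anti-miR value of Mmp9.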

Other observations

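Other members also lie in tandem or within other genes. On chromosome 16 (rn4), Adam9, Adam32, Adam5 and Adam3a follow one another on the plus strand; Adam9 had 2715 and 2433 reads and the other 3 were listed at 0. Adamts1 and Adamts5 are neighbours on the minus strand of chromosome 11, and their ratios lay on opposite sides of 1, at 0.890 and 1.19. Timp1, Timp3 and Timp4 each overlap a synapsin gene of the opposite strand, Syn1, Syn3 and Syn2. Syn1 had 10 and 28 reads, Syn3 0 and 5, and Syn2 0 in both, so the synapsin genes hold few reads beside the 1729 and 1678 of Timp1 and the 1382 and 914 of Timp3. Timp2 overlaps Ddc8 on the same strand, which had 114 and 51 reads against 14559 and 13823 for Timp2.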
